A study of Mus musculus with 3 samples.

Results

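The kinesin motors described here are the genes whose platform symbol is Kif followed by a number. They were 50 probes of 32 genes among the 38880 probes of the array. Kif15 and Kif20b, which belong to the contrast of mitotic with axonal motors, lay on the array under the older symbols Knsl7 and Mphosph1, and their 4 probes were added, which gave 54 probes of 34 genes. The contrast set 8 mitotic motors, with 11 probes, against 8 axonal motors, with 16 probes. The other 18 genes were split by role into 5 further division kinesins, 7 further transport kinesins and 6 kinesins of other or uncertain role.

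Kinesins are ATP-driven motors that walk along or take apart microtubules. The mitotic motors build and position the spindle, move chromosomes and organise the midzone at which the cell divides, and in the embryonic cortex they act in the progenitors that line the ventricle. The axonal motors carry vesicles, mitochondria and other cargo from the cell body of the neuron along its axon. Some of them, such as Kif5b, are found in most cell types, so the contrast is not one of cell types alone.

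The arrays compared dissected cortices of embryos at E15.5 (E stands for embryonic day) that carried the Snf2l-Ex6DEL allele with cortices of wild-type embryos, both on the 129Sv background. Snf2l (symbol Smarca1) is the ATPase of ISWI chromatin-remodelling complexes, and the name of the allele reads as a deletion of exon 6. There were 3 arrays of 2 colours each. Replicates 1 and 2 were a dye-flip of 1 mutant and 1 wild-type RNA, and replicate 3 used the other pair of samples, so that n = 2 pairs throughout (pair 1 and pair 2). The labels name no sex or litter, and do not say whether embryos were pooled or in which tissue the allele was deleted.

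Each value is a log2 ratio of mutant and wild type. The numerator is not stated. A positive value was taken to mean more RNA in the mutant, which is likely from the order of the genotypes in the design but not certain. With the opposite numerator every sign below turns. Replicates 1 and 2 correlated with r = 0.24 over 28336 features (gene symbols, or probes without one), and pair 1 with pair 2 at r = -0.066, so the pairs stood apart over the whole array. A ratio carries no level of expression, so neither the tissue of a single sample nor the abundance of a motor could be checked from it. It does show where the 2 samples of a pair differed. Markers of muscle, cartilage and skin had medians of -4.70 and -4.51 on replicates 1 and 2 and of 0.71 on replicate 3, as given below. In RNA of dissected tissue, fewer cells of a type and less RNA per cell cannot be told apart. On each array 1 value was far more frequent than any other (0.009, 0 and 0.001 on replicates 1 to 3, at 11.7%, 16.6% and 21.9% of probes), and a probe at that value was taken as not measured there. Such values stayed in the means and medians below unless a sentence says that they were left out. Smarca1 itself was at -0.017, 0.36 and 3.11 on replicates 1 to 3, with a mean over pairs of 1.64 ± 1.04 (SE from limma, n = 2 pairs, limma's adjusted p = 0.852). Where its probe lies relative to exon 6 is unknown here, so this value does not check the genotype.

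The promoters of the motors are shown first, because a short element was present in each mitotic promoter matched and in 1 of the 7 axonal ones. Many genes of late cell cycle carry a cell cycle genes homology region (CHR), the letters TTTGAA, which recruits the DREAM and MuvB complexes, often downstream of CCAAT boxes bound by NF-Y. RefSeq promoters of build GRCm38.p6, from 250 bases before to 50 bases after each annotated start, were matched by symbol for 28 of the 34 genes. Each line gives 100 of those bases, from 70 before the start to 30 after it, written 5′ to 3′ along the gene. Capitals mark TTTGAA or its reverse complement TTCAAA, and CCAAT or its reverse complement ATTGG. The first 6 lines are the mitotic motors with a CHR in these 100 bases. The last 4 are both starts of Kif1a, of which 1 holds a CHR, and the 2 axonal motors that kept 1 sign on all arrays.
Kif11 (chr19:37376312-37376411, plus strand): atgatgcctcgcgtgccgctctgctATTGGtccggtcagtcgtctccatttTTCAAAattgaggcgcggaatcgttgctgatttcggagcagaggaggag
Kif15 (chr9:122951011-122951110, plus strand): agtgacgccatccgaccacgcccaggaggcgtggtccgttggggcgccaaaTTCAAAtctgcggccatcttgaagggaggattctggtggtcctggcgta
Kif22 (chr7:127042391-127042490, minus strand): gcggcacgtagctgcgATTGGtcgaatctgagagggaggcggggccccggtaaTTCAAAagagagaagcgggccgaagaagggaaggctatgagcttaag
Kif23 (chr9:61946770-61946869, minus strand): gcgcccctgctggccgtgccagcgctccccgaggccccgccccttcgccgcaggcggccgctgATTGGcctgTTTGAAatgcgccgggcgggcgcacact
Kif4 (chrX:100625995-100626094, plus strand): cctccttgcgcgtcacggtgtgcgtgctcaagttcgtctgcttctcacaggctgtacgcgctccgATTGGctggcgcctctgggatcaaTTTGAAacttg
Kif20b (chr19:34922288-34922387, plus strand): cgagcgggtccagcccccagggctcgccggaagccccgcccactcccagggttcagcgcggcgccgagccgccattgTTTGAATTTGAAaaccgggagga
Kif1a, downstream start (chr1:93082451-93082550, minus strand): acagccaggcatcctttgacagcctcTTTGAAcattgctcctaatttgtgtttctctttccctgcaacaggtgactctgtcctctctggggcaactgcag
Kif1a, upstream start (chr1:93101845-93101944, minus strand): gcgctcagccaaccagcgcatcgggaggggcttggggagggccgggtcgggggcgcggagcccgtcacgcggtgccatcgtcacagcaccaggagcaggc
Kif3a (chr11:53567299-53567398, plus strand): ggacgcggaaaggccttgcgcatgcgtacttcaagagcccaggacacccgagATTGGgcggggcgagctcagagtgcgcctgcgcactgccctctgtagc
Kif21a (chr15:91049922-91050021, minus strand): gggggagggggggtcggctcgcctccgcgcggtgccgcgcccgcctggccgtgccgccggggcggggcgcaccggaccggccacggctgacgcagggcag

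A CHR was found on either strand in 7 of 7 mitotic promoters, those of Kif2c, Kif4, Kif11, Kif15, Kif20b, Kif22 and Kif23. It was found in 1 of 7 axonal promoters (of 5 genes, since Kif1a and Kif1b have 2 starts each), and in 17.9% of 32851 promoters in the RefSeq table. Positions are those of the first base of a match, with the start as 1 and the base before it as -1. The match nearest the start was at -19 in Kif11, -19 in Kif15 and -17 in Kif22, and at 3 in Kif23, 8 in Kif20b and 20 in Kif4. In Kif2c it lay outside the bases shown, at -103. The axonal match was at the downstream start of Kif1a. Among the other kinesins, only the promoters of Kif14 and Kif27 held a CHR, that of Kif14 at -228. All others matched had none, among them those of the division kinesins Kif2a, Kif2b, Kif18a and Kif24. CCAAT was in 4 of 7 mitotic, 3 of 7 axonal and 37.4% of all promoters, and no base was shared between a CHR and a CCAAT match. Of the 3 axonal promoters with CCAAT, 2 are overlapping windows of Kif1b that hold the same matches. TATAAA, the letters of a TATA box, was found in 1 mitotic and 1 axonal promoter, against 13.6% of all. Median GC content was 60.7% in mitotic and 67% in axonal promoters, against 52.7% in all. A match of letters is a description of the window, not of binding.

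No kinesin gene differed between mutant and wild type by limma after Benjamini-Hochberg adjustment, and neither did any other feature (0 of 28336, 0% called). At an unadjusted p under 0.05, limma called 1 of the 34 kinesin genes, Kif24, and 715 features, 2.52% of all. The 8 mitotic motors had a median log2 ratio of 0.20 on replicate 1, 0.27 on replicate 2 and -0.41 on replicate 3. With unmeasured values left out, the medians of the 7 mitotic motors that remained were 0.22, 0.36 and -0.82. The 8 axonal motors had medians of 0.40, 0.50 and -0.56 either way. Both group medians were thus above 0 in pair 1 and below 0 in pair 2, where the median of all features was 0.009, 0 and 0.001. The mitotic median minus the axonal one was -0.20, -0.24 and 0.15 on the 3 arrays. With unmeasured values left out it was -0.19, -0.14 and -0.26, so its sign on replicate 3 depended on Kif20a, which was not measured. The values of the 2 groups overlapped on every array.

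**Figure D1:**
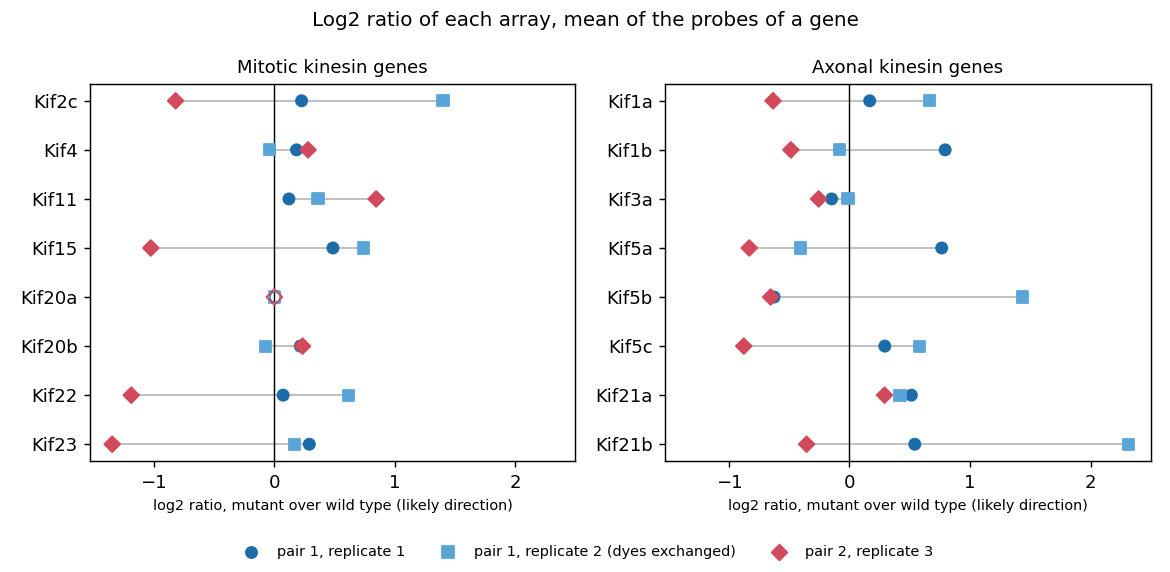
Log2 ratio of mutant and wild type (numerator likely the mutant) of each of the 8 mitotic and 8 axonal kinesins on the 3 arrays, each gene the mean of its probes. Open symbols mark genes not measured on an array (Kif20a). Kif11 and Kif21a lie above 0 and Kif3a lies below 0 on all 3 arrays, and most other genes lie on opposite sides of 0 in pair 1 (replicates 1 and 2) and pair 2 (replicate 3).

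Among the motors that build the spindle, Kif11 was the 1 mitotic gene above 0 on all 3 arrays. Kif11 is the tetrameric motor that slides antiparallel microtubules and pushes the spindle poles apart. It was at 0.12, 0.36 and 0.845 on replicates 1 to 3, and its mean over pairs was 0.54 ± 0.30 (SE from limma, limma's adjusted p = 0.852), a 1.46-fold ratio. Replicate 3 gave the highest value, and the 2 arrays of the other pair lay closer to 0. Kif15, which helps to hold the poles apart beside Kif11, was at 0.49, 0.74 and -1.02 as the mean of 3 probes, with a mean of -0.21 ± 0.61 (limma's adjusted p = 0.954). One of these probes was not measured on replicates 1 and 3. Without those readings Kif15 was at 0.73, 0.74 and -1.54, with a mean of -0.40 ± 0.77, and the median of its probes in place of their mean gave 0.034 over pairs. In the means of its probes, both arrays of pair 1 were above 0 and that of pair 2 was the farthest from it, on the other side. On replicate 2, however, its probes read 0.225, -1.24 and 3.23. The highest of these came from the probe not measured on replicates 1 and 3, so the sign of Kif15 there rested on that probe.

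The mitotic motors that act on chromosomes and kinetochores did not keep 1 sign on all arrays. Kif2c (MCAK), which takes microtubules apart at centromeres and frees wrongly attached chromosomes, was at 0.23, 1.40 and -0.82, and its mean over pairs was -0.0022 ± 0.60 (SE from limma). Kif22 (Kid), a chromokinesin that pushes chromosome arms away from the poles, was at 0.074, 0.61 and -1.19, with a mean of -0.42 ± 0.57. For both genes pair 1 was above 0 and pair 2 below it. Kif4, the other chromokinesin, which also limits the length of midzone microtubules together with Prc1, was at 0.185, -0.041 and 0.28, with a mean of 0.18 ± 0.23. Its 2 probes read 0.085 and 0.285 on replicate 1, 0.006 and -0.088 on replicate 2, and 1.13 and -0.57 on replicate 3, so that the gene's value on replicate 3 was the mean of 2 readings of opposite sign. A further probe, under the older symbol 4930463M05Rik, belongs to Kif4-ps, a pseudogene copy of Kif4. It was at 0.605, 1.20 and 1.33, with a mean of 1.11 ± 0.26 (limma's unadjusted p = 0.047 and adjusted p = 0.852). Which of the 2 transcripts the probes of Kif4 and Kif4-ps pick up could not be settled here.

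The motors of cytokinesis showed the same split between pairs in 1 case. Kif23 (MKLP1), which forms centralspindlin with Racgap1 at the midzone, was at 0.29, 0.17 and -1.34, with a mean of -0.56 ± 0.59 (SE from limma, limma's adjusted p = 0.852). Kif20b, needed for the last cut between daughter cells and for normal cortical size in the mouse, was at 0.22, -0.075 and 0.235, with a mean of 0.15 ± 0.22. It stayed within 0.235 of 0 on every array. Kif20a (MKLP2), which brings the chromosomal passenger complex to the midzone, sat at the most frequent value on all 3 arrays and was thus not measured. Of the 7 mitotic motors with a measurement, 5 were above 0 on both arrays of pair 1, against 28.2% of features, and 4 were below 0 in pair 2, against 52.2% of features. Kif15 was among the 5 only by the mean of its probes.

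Among the axonal motors, the heavy chains of conventional kinesin, which haul vesicles and mitochondria towards the axon tip, were all below 0 in pair 2. So were 52.2% of features. Kif5a was at 0.765, -0.41 and -0.83 on replicates 1 to 3, with a mean over pairs of -0.33 ± 0.41 (SE from limma). Kif5c was at 0.29, 0.58 and -0.88, with a mean of -0.22 ± 0.50. Kif5b, the heavy chain found in most cell types, was at -0.63, 1.44 and -0.65, with a mean of -0.12 ± 0.43. Replicates 1 and 2 held the same RNAs, yet Kif5a and Kif5b had opposite signs on them. The 2 probes of Kif5b read -0.11 and -1.14 on replicate 1, -0.42 and 3.29 on replicate 2, and 1.28 and -2.59 on replicate 3, so the gene's value rested on readings up to 3.86 apart.

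The carriers of synaptic vesicle precursors stood close to 0 over pairs. Kif1a was at 0.17, 0.66 and -0.63, with a mean of -0.11 ± 0.42 (SE from limma, limma's adjusted p = 0.975). Kif1b, which also carries mitochondria, was at 0.79, -0.081 and -0.49 over 4 probes, with a mean of -0.065 ± 0.36 (limma's adjusted p = 0.994). Both gene values were below 0 in pair 2. The 4 probes of Kif1b, however, read -0.64, -2.61, 0.825 and 0.47 there, and the median of its probes in place of their mean gave 0.185 over pairs. Kif3a, which with Kif3b and Kifap3 forms the heterotrimeric motor of axons and cilia, was the 1 axonal gene below 0 on all arrays. Its values of -0.148, -0.012 and -0.256 were small, and its mean was -0.17 ± 0.22 (limma's adjusted p = 0.869). That single sign held only for the mean of its probes. One probe read -0.245, -0.256 and -0.82 on replicates 1 to 3, and the other -0.051, 0.23 and 0.305.

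Kif21a and Kif21b, which slow the growth of microtubule ends, had the 2 highest means of the axonal group. Kif21a was at 0.51, 0.42 and 0.29, above 0 on all 3 arrays, and its mean was 0.38 ± 0.22 (SE from limma, limma's adjusted p = 0.852), a 1.30-fold ratio. Its gene value hid a disagreement on replicate 3, where 1 probe read 1.02 and the other -0.435. Kif21b was at 0.54, 2.31 and -0.36, with a mean of 0.54 ± 0.65 (limma's adjusted p = 0.862). A single probe at 6.11 on replicate 2 gave most of its value there. Of the 8 axonal motors, 4 were above 0 on both arrays of pair 1, against 28.2% of features. In pair 2, 7 of 8 were below 0, against 52.2% of features.

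Of the other division kinesins, Kif18a was above 0 on all arrays and Kif24 below 0 on all arrays. Kif18a, which damps the swaying of chromosomes at the spindle equator, was at 0.79, 0.95 and 0.46 on replicates 1 to 3. Its mean over pairs was 0.67 ± 0.26 (SE from limma, limma's adjusted p = 0.852), a 1.59-fold ratio, from 1 probe. Kif24, which restrains the growth of cilia from centrioles, was at -0.40, -2.99 and -2.96, with a mean of -2.33 ± 0.49 (limma's unadjusted p = 0.038 and adjusted p = 0.852). Its 2 probes did not read alike. They were at 0.97 and -1.78 on replicate 1 and at -3.12 and -2.87, close together, on replicate 2. On replicate 3 a single probe was measured, at -5.93, and the gene's -2.96 is its mean with the unmeasured one. Without that reading the mean of Kif24 was -3.81 ± 1.23 (limma's unadjusted p = 0.045 and adjusted p = 1.00). Kif14, which acts in cytokinesis with citron kinase, was at -1.50, 1.13 and 1.20, of which the last is the mean of a probe at 2.39 and an unmeasured one. Kif2a and Kif2b, depolymerases related to Kif2c, were at 0.77, -0.11 and -0.49 and at 0.22, 0 and -2.37, and Kif2b was at the most frequent value on replicate 2.

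The other transport kinesins had medians of -0.042, -0.30 and -0.54. Kif13a, a carrier of endosomal and Golgi vesicles, was at -0.22, -0.30 and -0.65, the 1 gene of the 7 with the same sign on all arrays, and its mean was -0.45 ± 0.25 (SE from limma, limma's adjusted p = 0.852). Its relative Kif13b was at 0.61, -0.82 and -1.33. Kif3b and Kif3c, the partners and relatives of Kif3a, were at 0.11, 0.028 and -0.45 and at 0.34, 0.80 and -0.61. Kif17, which moves receptor vesicles in dendrites, was at -0.68, 0.032 and -0.54. Kif16b, a motor of early endosomes, was at -1.38, -0.81 and 1.43, and Kif1c, a relative of Kif1a, was at -0.042, -0.38 and 0.096, or 0.19 on replicate 3 without an unmeasured probe. Kif16b and Kif1c were the 2 of these genes below 0 in pair 1 and above 0 in pair 2.

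The remaining kinesins act mostly in cilia or are little known. Kif27, a relative of Kif7 with a role in motile cilia, was at -1.63, -1.60 and -0.31, with a mean of -0.96 ± 0.50 (SE from limma, limma's adjusted p = 0.852). Kif7, which shapes the tip of the primary cilium and tunes Hedgehog signalling, was at 1.94, 0 and 0.185, with the most frequent value on replicate 2. Kif9 was at -0.90, 1.60 and -1.16, and Kif12 at 0.51, 0.18 and -0.027. Kif6 was at -0.24 and -0.42 on replicates 1 and 2 and at the most frequent value on replicate 3. Kif16a, now named Stard9, was at 0, 0.35 and -0.98. None of these but Kif27 kept 1 sign.

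**Figure D2:**
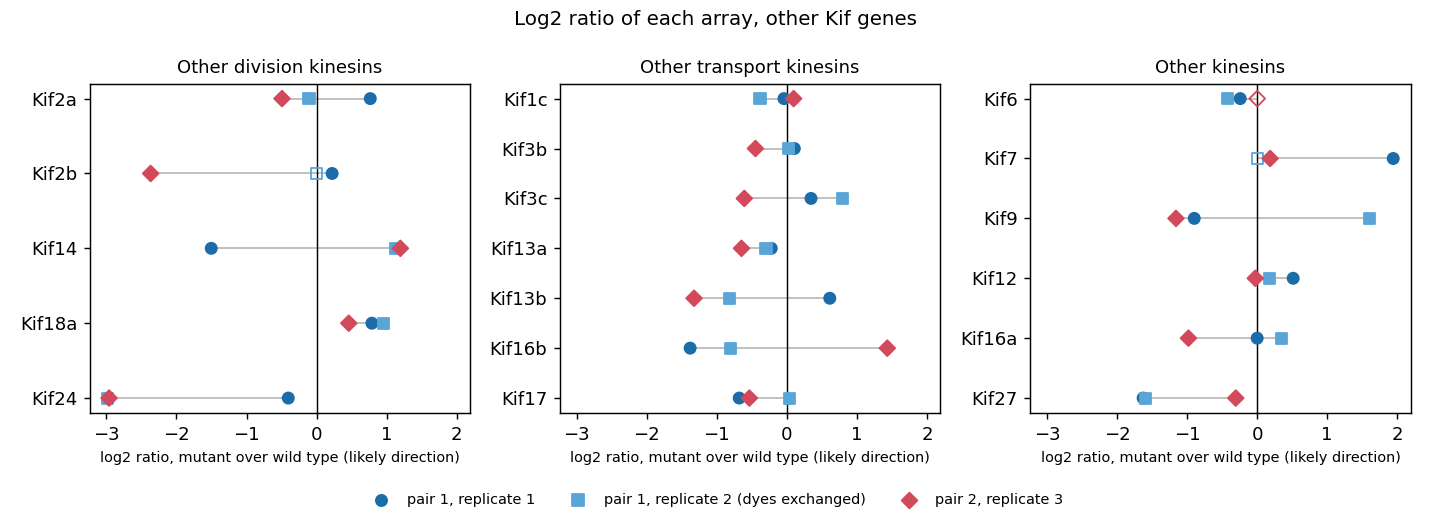
Log2 ratio of mutant and wild type of the 18 kinesins outside the contrast, by role, on the 3 arrays. Kif18a lies above 0, and Kif13a, Kif24 and Kif27 below 0, on all 3 arrays. Open symbols mark genes not measured on an array, and the point of Kif24 on replicate 3 (-2.96) is the mean of a probe at -5.93 and an unmeasured one.

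Over all kinesins, a gene entered a count of signs only where it had a sign, a measured value other than 0, on each array of that count. Above 0 on all 3 arrays were 3 of 29 genes, Kif11, Kif18a and Kif21a, against 12.9% of features. Below 0 on all 3 were 4 of 29, Kif3a, Kif13a, Kif24 and Kif27, against 14.7%. Neither share stood apart from its background. At least 1.5-fold higher on every array were 0 of 29 (1.67% of features), and at least 1.5-fold lower 0 of 29 (2.59% of features). On both arrays of pair 1, 13 of 30 kinesins were above 0 (28.2% of features) and 7 of 30 below it (29.7% of features). In pair 2, 23 of 32 were below 0, or 71.9%, against 52.2% of features. These shares describe 2 pairs of embryonic samples and carry no test.

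**Figure D3:**
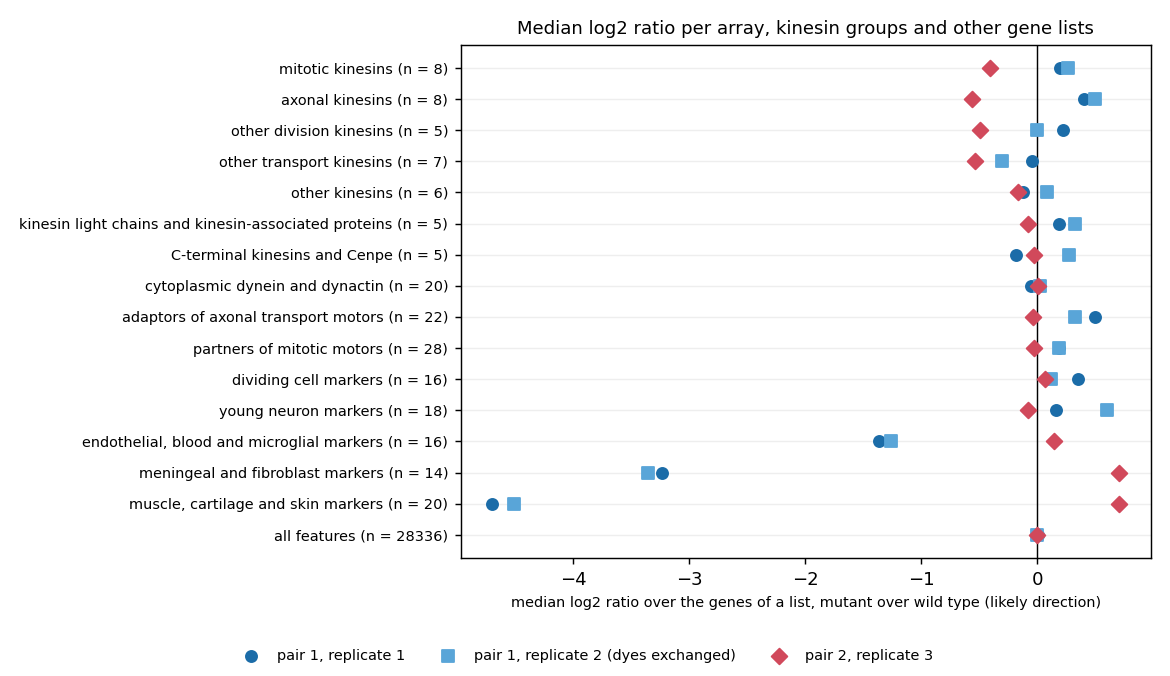
Median log2 ratio of mutant and wild type on each array for the mitotic, axonal and other kinesins, for lists of their partners, and for markers of other tissues. With unmeasured values kept in, the medians of mitotic and axonal kinesins lie between -0.56 and 0.50, while those of the muscle, cartilage and skin markers and of the meningeal markers lie below -3.2 in pair 1 and near 0.7 in pair 2.

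Different probes of a gene on 1 array show how far its ratio repeated. Of the 34 genes, 15 had 2 or more probes. All measured probes of a gene had the same sign in 11 of 15 genes on replicate 1, in 7 of 15 on replicate 2 and in 3 of 12 on replicate 3. The median gap between the highest and the lowest probe of a gene was 0.445, 0.515 and 1.52. The gap was largest for Kif24 on replicate 1 (2.75), for Kif21b on replicate 2 (6.21) and for Kif5b on replicate 3 (3.86). On replicate 3 the typical gap was thus larger than the median log2 ratio of either motor group there. Probes of a gene may bind different transcripts, and their sequences were not used here, so technical error and differences between transcripts cannot be told apart. Across the 34 kinesin genes, replicates 1 and 2 correlated with r = 0.15 and Spearman's rho = 0.11, although they shared their RNAs, and pair 1 with pair 2 at r = 0.098. Genes share arrays and samples, so these are descriptions across genes. A further 7 probes lay under older symbols of Kif genes, outside the gene values above. Those of Kif2a, Kif6 and Kif13b belong to genes given here. That of Kif6 read 1.49, 0.11 and 2.80 on replicates 1 to 3, and that of Kif2a -0.002, -0.019 and -0.70. That of Kif13b was unmeasured on replicate 1 and read 0.99 and 0.32 on the others. Other probes of Stard9, the current name of Kif16a, read 1.73, 0.093 and 1.32 on replicate 3, where Kif16a was at -0.98. Of the 7 probes, 2 are of Kif18b, a relative of Kif18a. These read 0.36 and 0.32 on replicate 1, 0.79 and 0.25 on replicate 2, and -0.86 and 0.42 on replicate 3.

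The proteins that work with these motors were read from lists of named partners, and limma called 0 members of every list after adjustment, with a lowest adjusted p of 0.852 in each. At an unadjusted p under 0.05 it called 1 member of all the lists, Lyz2, a marker of macrophages. The 28 partners of mitotic motors (kinetochore, checkpoint, midzone and chromosomal passenger proteins) had medians of 0.19, 0.19 and -0.026. Of those with a sign on all arrays, 5 of 26 were above 0 on all 3, against 12.9% of features, and 2 of 26 below 0, against 14.7% of features. Sgo2a, which recruits Kif2c to centromeres, was at 0.935, 1.24 and 0.71, and the checkpoint kinase Ttk at 0.50, 1.12 and 0.41. Bub1, a checkpoint kinase, was at 0.55, 0.26 and 0.20. Ndc80, which holds microtubules at the kinetochore, was at -0.66, -1.75 and -0.28, opposite in sign to the other 3. The list of C-terminal kinesins and Cenpe, 5 genes, had medians of -0.18, 0.28 and -0.026, and Kifc3 was at -0.18, -0.40 and -0.026. Markers of dividing cells had medians of 0.35, 0.12 and 0.066 over 16 genes, with 3 of 15 above 0 on all arrays (12.9% of features), namely Cdca3 (1.18, 0.30 and 1.38), Cenpa (0.20, 0.80 and 1.11) and Rrm2 (0.76, 0.40 and 0.13). None was below 0 on all 3.

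On the axonal side, the 22 adaptors that tie motors to cargo had medians of 0.499, 0.33 and -0.032. Of these, 14 of 22 were above 0 on both arrays of pair 1, against 28.2% of features, 11 of 22 were below 0 in pair 2, against 52.2%, and 6 of 22 were above 0 on all 3, against 12.9%. Bicd1, a dynein adaptor, was at 0.63, 1.02 and 1.37, and Kidins220, a cargo of conventional kinesin, at 0.50, 0.54 and 0.43. Syt11 was at 0.84, 0.33 and 0.53, and Mapk8ip3 (JIP3), a scaffold on conventional kinesin, at 0.52, 0.33 and 0.0635. The 5 kinesin light chains and kinesin-associated proteins measured had medians of 0.19, 0.32 and -0.08, and none kept 1 sign. Dynein and dynactin, which carry cargo back to the cell body, had medians of -0.056, 0.028 and 0.011 over 20 genes, with 3 of 19 above 0 (12.9% of features) and 3 of 19 below 0 (14.7% of features) on all arrays. The dynactin subunit Actr1a was at 0.55, 0.20 and 0.80 and the dynein intermediate chain Dync1i2 at 0.42, 0.055 and 0.49. The light chains Dynlt3 and Dynlrb2 were at -1.04, -0.18 and -0.62 and at -0.18, -0.65 and -1.72. Markers of young neurons, in whose axons the axonal motors carry cargo, had medians of 0.16, 0.60 and -0.077 over 18 genes. Among them Tbr1 (3.90, 4.24 and 0.33), Fezf2 (4.53, 3.70 and 0.39) and Bcl11b (2.61, 2.32 and 0.39), factors of deep-layer cortical neurons, were high in pair 1 and close to 0 in pair 2. Nefm, a neurofilament, was at -0.87, -0.81 and -1.46. These 4 were named because they kept their sign, and the list medians lay closer to 0 on each array. In pair 1, 10 of 18 were above 0 on both arrays (28.2% of features) and 3 of 18 below it (29.7%). On all 3 arrays, 5 of 18 were above 0 (12.9% of features) and 2 of 18 below it (14.7%).

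Markers of other tissues moved with the pairs beside the kinesins. The 20 markers of muscle, cartilage and skin were at medians of -4.70, -4.51 and 0.71. In pair 1, 17 of 19 lay below 0 on both arrays, against 29.7% of features. In pair 2, 13 of 18 lay above 0 and 5 below it, against 52.2% of features below 0. Myh8, a muscle myosin, was at -2.55, -2.00 and -1.03, and Col9a1, a cartilage collagen, at -3.87, -4.13 and -1.44. Ckm was at -3.56, -3.45 and -0.47, and Krt1 at -1.76, -0.66 and -0.46. These 4 were named because they kept their sign, and so were among the 5 below 0 in pair 2. The 14 meningeal and fibroblast markers had medians of -3.23, -3.36 and 0.70. All 14 were below 0 on both arrays of pair 1, against 29.7% of features. In pair 2, 11 of 14 were above 0 and 3 below it, against 52.2% of features below 0. Ptgds, an enzyme of the meninges, was at -5.50, -5.35 and -2.41, Slc6a13 at -2.98, -3.07 and -0.565, and Fn1 at -1.24, -2.39 and -0.036. By the same rule of naming, these were the 3 below 0 in pair 2, unlike the other 11. The 16 endothelial, blood and microglial markers were at medians of -1.36, -1.26 and 0.15, and 12 of 15 lay below 0 on both arrays of pair 1, against 29.7% of features. In pair 2, 10 of 16 were above 0 and 6 below, or 37.5% below 0 against 52.2% of features. The 4 named here kept their sign on all arrays and so were among the 6. Lyz2 was at -2.06, -1.06 and -1.39, Csf1r at -1.27, -0.33 and -2.05, Hbb-bh1 at -1.50, -5.16 and -0.33 and Esam at -0.58, -1.45 and -0.295. The group medians of the mitotic and axonal motors thus lay above 0 in the pair in which the medians of these 3 lists lay below it, and below 0 in the other pair, in which those medians lay above it. Single motors departed from this: Kif4, Kif11, Kif20b and Kif21a were above 0 in pair 2, and Kif3a was below 0 in both pairs. The part of these markers in the kinesin ratios was not tested.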

How the data were processed

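Expression was measured on 3 arrays of 2 colours, 1 value per probe and array. RNA was isolated with a column kit and labelled with dendrimer dyes, and wild type carried Cy3 and mutant Cy5 on replicates 1 and 3, with the dyes exchanged on replicate 2, all per the labels. The authors deposited 1 log2 ratio per probe. The log scale and centring were read from the values, and the direction was taken as mutant over wild type. Replicates 1 and 2 correlated above 0, so the dye exchange was taken as already turned. Scanner, background correction, normalization and spot filter are not given in the sources used here. No spot intensities were used, so precision rests on the number of arrays and no filter on dim spots was made.

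The platform annotation named 30457 of the 38880 probes, and 8423 had no symbol. Symbols were updated through RefSeq names (GRCm38.p6): 12795 of 21476 were current, 8317 were updated and 364 were kept. Probes of an updated symbol were averaged, older symbols of Kif genes were kept apart, and each probe with no symbol was a feature. Replicates 1 and 2 were averaged as pair 1. An intercept-only model was fitted over both pairs with limma 3.58.1 (R 4.3.3), lmFit and eBayes, with Benjamini-Hochberg adjustment over 28336 features and a two-sided threshold of 0.05. The moderated test had 2.08 degrees of freedom. Its p-values set the mean of 2 pairs against 0, with an SE that joins the spread between a gene's 2 pairs with the spread over all features. On simulated data the fit was required to find added shifts only at a small spread shared by all features. That does not show its power at the spread of these data. Tables and figures used Python 3.11.15 with pandas 2.3.3 and matplotlib 3.10.9.

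Kinesin genes and all lists were chosen with earlier results of these data known. Named outside the kinesins were up to 4 genes per list that kept their sign, by the size of their smallest ratio, Smarca1, and Kif4-ps and Kif18b, which were chosen after their values were seen. The other probes named under older symbols were also chosen after their values were seen. All 18 kinesins outside the contrast are given, with tests for those of 1 sign. Some listed genes, among them Klc1, Dynlt1b, Actr1b, Mapk8ip1, Ccnb1 and Rbfox3, were not analysed here. Alternatives changed the centring, scale, probe summary, arrays used, dye term, eBayes and thresholds.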

Additional observations from a re-analysis of the deposited data

How the results depend on the processing

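No kinesin gene and no feature passed limma's adjusted threshold in any alternative that could be tested. At an unadjusted p under 0.05 limma called 1 kinesin and 715 features. Leaving out replicate 3 left 1 pair and thus no test. The count of kinesins above 0 on all arrays used was 3 of 29, against 12.9% of features. It became 8 with every probe counted alone, and ranged from 4 to 13 when 1 replicate was left out. The count below 0 was 4 of 29, against 14.7% of features, and ranged from 7 to 8 when 1 replicate was left out. At 1.5-fold or more on every array the count was 0 of 29 in each direction, against 1.67% of features higher and 2.59% lower. With every probe counted alone it was 1 higher and 1 lower, at the lower fold threshold 1 higher and 1 lower, and without 1 replicate 0 to 1 higher and 2 lower. With 1 replicate left out, 2 arrays in place of 3 must share a sign, and the share over all features rises as well. Without replicate 3, 13 of 30 kinesins were above 0, against 28.2% of features, and 7 of 30 below 0, against 29.7%. For the other alternatives no share over all features is given here, so their counts cannot be set against a background. Without replicate 3 the mean of 9 of the 16 mitotic and axonal genes changed sign, without replicate 1 that of 3 and without replicate 2 that of 1, and the mitotic median ranged from -0.13 to 0.24 and the axonal from -0.12 to 0.41. Pooling probes under older symbols was an alternative added after seeing the data. It could not change the means of these 16 genes, since none of them had such a probe beyond those already added. The counts above and below 0 on all arrays stayed at 3 and 4 with it. Leaving out unmeasured values turned the mitotic minus axonal median on replicate 3 from 0.15 to -0.26. Each array pairs a mutant with a wild-type sample, so the fit over pairs is itself paired. With 2 pairs, the number of arrays limits every value.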
